A study of Mus musculus with 30 samples.

Results

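Erg, Fli1, Ets1, Ets2, Elk3, Etv6, Elf1 and Elf2 are 8 genes that encode transcription factors of the ETS family. They were chosen by name from 21847 protein-coding genes of the mouse annotation, and all 8 were quantified in each of 14 RNA-seq libraries. RNA-seq and ATAC-seq, which cuts open chromatin with a transposase, were performed on vascular endothelial cells (ECs) from adult male mouse brain, either directly after sorting or after 8 days of primary culture. The study asked what happens to brain ECs when they leave the brain, and whether stabilized beta-catenin, the effector of canonical Wnt signaling, changes the outcome.

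Acutely isolated ECs were GFP-positive cells sorted from the brains of Tie2-GFP mice, in which an endothelial promoter drives GFP. The GFP-negative cells of the same kind of sort served as the non-endothelial comparison (2 RNA-seq libraries each). The study's adult brain ECs join a new cerebrum EC data set with a cerebellum EC data set published earlier. The paper does not state how each library divides between these regions. Wild-type (WT) cultures were selected with puromycin, which spares brain ECs because they export it, and came as 6 wells from 3 experiments. Wells 1 and 2 (experiment 1) came from C57BL/6J mice by isolation method A and were sequenced for 36 cycles. Wells 3 and 4 (experiment 2) came from Ctnnb1flex3/+;Tie2-GFP mice by method B, and their libraries were prepared by another facility and sequenced for 150 cycles. Wells 5 and 6 (experiment 3) had the genotype of experiment 2, the 36 cycles of experiment 1 and, per the study's methods section, isolation method B. A figure legend of the study assigns them to method A instead, so statements on method that use these wells follow the methods section. The WT cultures with the flex3 allele carried it unrecombined. The 4 stabilized wells came from Ctnnb1flex3/+;Pdgfb-CreER;Tie2-GFP mice, in which an endothelial CreER removes the exon that targets beta-catenin for degradation (wells 1 and 2 by method A, wells 3 and 4 by method B, all 36 cycles). Per the study's methods, 4HT, the active metabolite of tamoxifen, was injected in early postnatal life into controls and stabilized mice, although the wording does not settle whether the C57BL/6J mice received it. Cells of several mice were pooled for each culture, so a well is not an animal. The p-values measure only the spread between these wells or sorted libraries. ATAC-seq peak lists were analysed for 2 acutely isolated, 6 WT cultured and 2 stabilized samples, all sequenced for 36 cycles. Per the study's methods, WT ATAC-seq samples 1 and 2 came by method A from C57BL/6J mice. WT samples 3 to 6, from Ctnnb1flex3/+;Tie2-GFP mice, and both stabilized samples came by method B.

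ETS factors share a winged helix-turn-helix domain that binds DNA around a GGAA core, and most act together with other factors on composite sites. In endothelium, nearly every known enhancer and promoter holds ETS motifs, and several family members occupy the same sites. Erg and Fli1 are close relatives that maintain endothelial identity and junctions, Ets1 and Ets2 are activators that respond to Ras and MAP kinase signaling, Elk3 is a ternary complex factor that represses serum response targets until it is phosphorylated, Etv6 is a repressor needed in blood vessels and hematopoiesis, and Elf1 and Elf2 form a separate branch that is active in blood and endothelial cells.

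The windows below are those where open chromatin at these genes was shared by all samples, lacking in all samples, or found on one side of the culture step. A pair of promoter windows of Erg (RefSeq, GRCm38.p6, minus strand, 250 bases before to 50 bases after a start) are given 5′ to 3′, with GGAA or its complement TTCC in capitals. The window chr16:95459299-95459598 held a peak in all 10 ATAC-seq samples, and chr16:95530316-95530615 held one in 0 of 10.
Erg, start with a peak in 10 of 10: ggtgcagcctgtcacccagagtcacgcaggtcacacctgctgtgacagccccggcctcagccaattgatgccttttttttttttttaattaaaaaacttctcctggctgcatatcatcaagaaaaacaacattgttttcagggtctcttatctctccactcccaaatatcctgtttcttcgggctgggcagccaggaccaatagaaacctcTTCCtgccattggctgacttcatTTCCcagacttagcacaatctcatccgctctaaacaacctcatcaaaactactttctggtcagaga
Erg, start with a peak in 0 of 10: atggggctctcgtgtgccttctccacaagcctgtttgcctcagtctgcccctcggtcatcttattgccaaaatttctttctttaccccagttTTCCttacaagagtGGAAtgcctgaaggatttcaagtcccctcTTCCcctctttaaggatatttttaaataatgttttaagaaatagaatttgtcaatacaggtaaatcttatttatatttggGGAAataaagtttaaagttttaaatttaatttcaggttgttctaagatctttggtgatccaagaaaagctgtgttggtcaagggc
The other 4 windows are 300 bases around the highest peak summit of an intronic or neighboring region (genome plus strand, GRCm38). The first pair held a peak in both acutely isolated samples and in no culture: chr10:93242325-93242624 lies in an intron of Cdk17, 4748 bases beyond Elk3, and chr9:32637213-32637512 lies in an intron of Ets1.
Near Elk3, acutely isolated only: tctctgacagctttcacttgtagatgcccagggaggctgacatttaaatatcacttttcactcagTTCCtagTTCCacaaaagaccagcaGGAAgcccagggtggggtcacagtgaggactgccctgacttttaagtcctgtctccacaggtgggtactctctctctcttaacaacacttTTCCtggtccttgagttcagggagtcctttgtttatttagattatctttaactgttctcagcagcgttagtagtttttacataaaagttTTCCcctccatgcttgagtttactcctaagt
Ets1 intron, acutely isolated only: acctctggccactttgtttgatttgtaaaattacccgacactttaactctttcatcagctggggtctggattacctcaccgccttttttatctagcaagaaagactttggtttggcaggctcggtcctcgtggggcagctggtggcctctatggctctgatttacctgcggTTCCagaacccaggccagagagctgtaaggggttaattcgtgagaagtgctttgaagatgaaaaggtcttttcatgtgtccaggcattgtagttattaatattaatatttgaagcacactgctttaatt
The last pair held a peak in all 8 cultures and in neither acutely isolated sample: chr6:134214775-134215074 in an intron of Etv6 and chr16:95415941-95416240 in an intron of Erg.
Etv6 intron, all cultures: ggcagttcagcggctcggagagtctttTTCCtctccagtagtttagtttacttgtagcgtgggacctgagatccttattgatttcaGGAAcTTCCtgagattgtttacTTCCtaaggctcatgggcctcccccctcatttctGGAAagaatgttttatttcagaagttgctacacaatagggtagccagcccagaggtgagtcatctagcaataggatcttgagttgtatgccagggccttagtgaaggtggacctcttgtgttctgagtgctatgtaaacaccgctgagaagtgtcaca
Erg intron, all cultures: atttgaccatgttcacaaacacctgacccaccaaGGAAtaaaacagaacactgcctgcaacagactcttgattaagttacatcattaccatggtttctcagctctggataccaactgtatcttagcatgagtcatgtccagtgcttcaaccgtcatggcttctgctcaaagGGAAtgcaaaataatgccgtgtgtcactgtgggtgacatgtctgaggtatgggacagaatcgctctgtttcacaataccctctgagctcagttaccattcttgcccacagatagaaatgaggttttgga
The Etv6 and Elk3 windows hold 5 GGAA or TTCC each, the Erg intron 2 and the Ets1 intron 1.

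Expression is given in TPM, a transcript's reads per base of length as a share of the library, summed over the transcripts of a gene, so that levels of different genes can be compared per length. The RNA-seq libraries held between 24284843 and 94686456 estimated counts. The TPM scale itself differed between libraries: protein-coding genes took 94.7% and 94.8% of all TPM in experiment 2 but 36.3% to 65.0% in every other library, where the small RNA genes Rn7s1 (cultures) or Mir6236 (sorted cells) took up to 45.5% and 33.8%. Across 8285 genes the median difference in log2(TPM + 1) between experiments 2 and 1 was 1.10. Where cultures are compared with each other, coding TPM is given. This is TPM rescaled so that protein-coding genes sum to the same total in each library as all genes do. On this scale the median differences between experiments were at most 0.06 log2 units. All 9 endothelial markers were higher in GFP-positive than in GFP-negative cells, and the summed endothelial markers ranged from 2754 to 3543 TPM in acutely isolated ECs and from 2207 to 5546 in WT culture, where 3 of the 9 were called lower than in acutely isolated ECs and 1 higher.

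In acutely isolated ECs, Ets1 had the highest summed TPM of the 8 genes. Its level was 309.5 and 237 TPM in the acutely isolated libraries, and both lay above every library of the next gene, Erg, at 99.1 and 147 TPM. Elk3 followed at 86.7 and 120.1 TPM, and its range overlapped that of Erg. Much of the TPM of Ets1 and Elk3 was assigned to short transcripts, Ets1-205 (154 and 101 TPM) and Elk3-205 (63.8 and 88.9 TPM), and in estimated counts Erg (41219 and 33774) was below Ets1 (67216 and 33424) in library 1 only. Elf2 (37.4 and 57.3 TPM), Fli1 (33.6 and 39.9 TPM) and Ets2 (24.5 and 46.1 TPM) formed a middle group with overlapping ranges. Elf1 stood below them at 21.9 and 20.8 TPM, and Etv6 was lowest at 4.02 and 12.8 TPM. In GFP-negative cells the order was another one: Elf2 led at 26.7 and 21.6 TPM and Erg was last at 1.10 and 0.880 TPM. In WT culture the mean levels ran from 84.7 TPM for Ets1 over 59.4 for Erg, 45.1 for Fli1, 40.5 for Ets2, 37.2 for Elk3, 26.0 for Elf2 and 18.3 for Etv6 to 16.98 for Elf1, and no neighbors in this order were separated by their ranges over the 6 wells. These means pool experiments whose TPM scale differed: Erg was above Ets1 in both wells of experiments 1 and 3 and below it in both wells of experiment 2. In the stabilized cultures Erg led with a mean of 154 TPM and was above Ets1, at 118 TPM, in 4 of 4 wells, as it was in 4 of 6 WT wells.

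**Figure D1:**
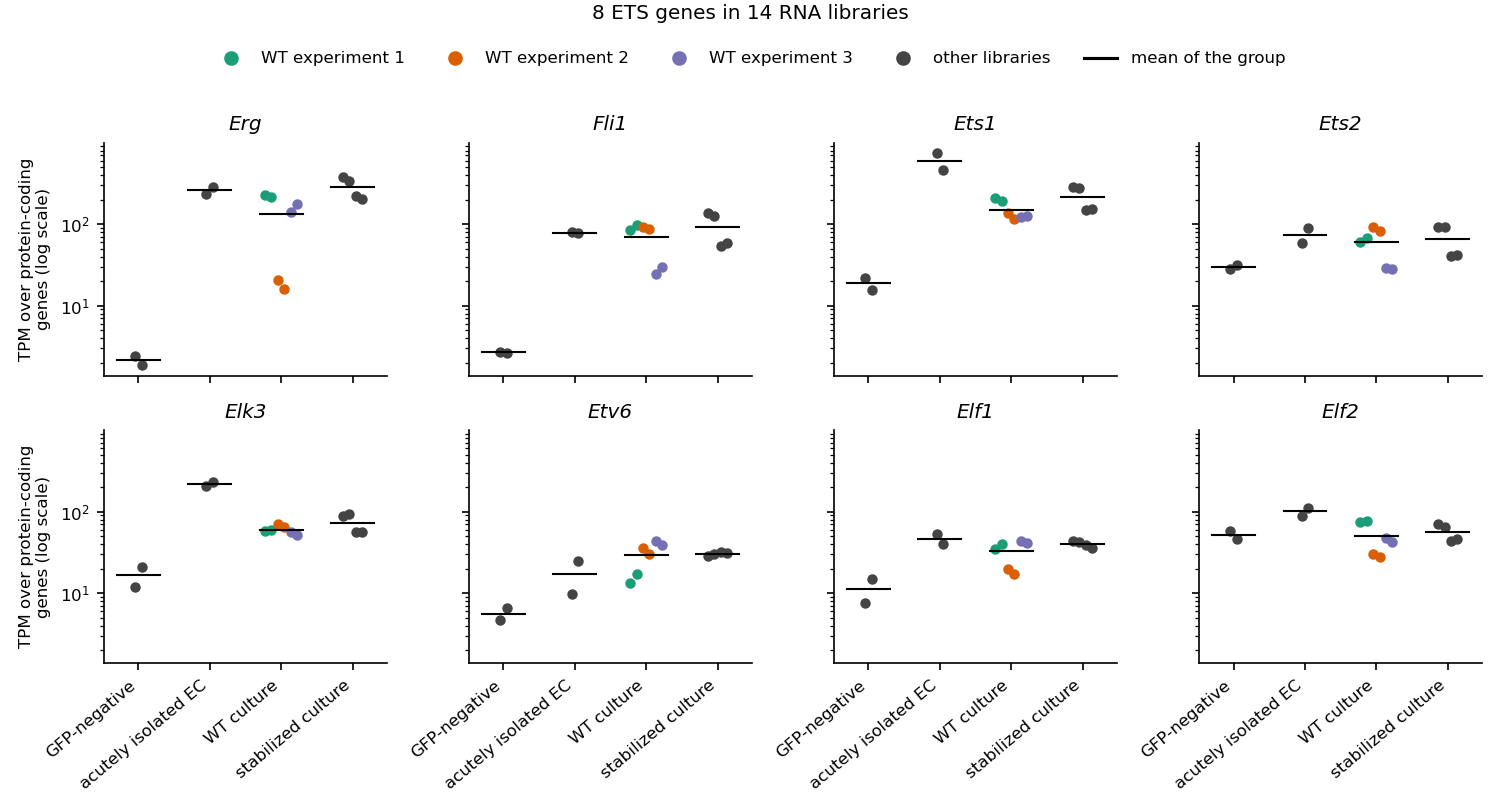
Coding TPM on a log axis of each of the 8 ETS genes in the 14 RNA-seq libraries, by group, 1 point per library. Erg runs from 1.86 coding TPM in GFP-negative cells to 379.5 in a stabilized culture, while Elf2 lies between 28.1 and 75.7 in the 6 WT wells.

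Against GFP-negative cells, 7 of the 8 genes were higher in acutely isolated ECs. A gene was called when its adjusted p was below 0.05, its fold change above 2 and its level at least 5 TPM in every library of the higher group, and 8.28% of the 15116 genes tested were called higher and 7.55% lower. Erg, the EC identity factor, had the largest difference of the 8, from 1.10 and 0.880 TPM in GFP-negative cells to 99.1 and 147 TPM in ECs (log2 fold change 6.86 ± 0.47 SE, adjusted p = 0.00166, edgeR quasi-likelihood test with Benjamini-Hochberg adjustment, n = 2 per group). Its relative Fli1 went from 1.22 and 1.26 TPM to 33.6 and 39.9 TPM (log2 4.66). The groups did not overlap for either gene. The ternary complex factor Elk3 differed by 4.30 log2 units and Ets1 by 4.15. The remaining called genes differed less: Elf1 by 2.52, Ets2 by 1.76 and Elf2 by 1.41. Elf2 was thus the called gene closest to even expression, at 26.7 and 21.6 TPM outside and 37.4 and 57.3 TPM inside the endothelium. Etv6 was not called (log2 1.195, 95% interval 0.18 to 2.21, adjusted p = 0.0795), with 2.13 and 3.11 TPM in GFP-negative cells and 4.02 and 12.8 TPM in ECs. The median over the 8 genes was 3.33 log2 units, and over all genes tested −0.06. Elf2 lost its call without acutely isolated library 1 (log2 1.23, adjusted p = 0.0772) or without GFP-negative library 1 (1.61, 0.0940), and both Elf2 (1.25, 0.179) and Ets2 (1.70, 0.0574) lost theirs without GFP-negative library 2. No marker of neurons, glia, pericytes, smooth muscle, fibroblasts or erythrocytes was called higher in the GFP-positive cells. Pericyte markers still summed to between 505.8 and 526.4 TPM in the GFP-positive libraries and to between 351 and 686 in the GFP-negative ones. Erythrocyte genes summed to 4751 and 31510 TPM in the GFP-positive libraries and to 1104 and 10950 in the GFP-negative ones. The part of these cells in the differences was not tested.

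After 8 days in culture, 5 of the 8 genes were lower than in acutely isolated ECs and none was higher, where 10.2% of 13798 genes were called lower and 23.7% in either direction. The fall was steepest for Elk3, which went from 86.7 and 120.1 TPM in ECs to 21.2, 28.1, 66.6, 62.2, 22.8 and 22.3 TPM in WT wells 1 to 6. Every well lay below both acutely isolated libraries (log2 fold change −2.06 ± 0.25 SE, adjusted p = 4.71e-04, edgeR quasi-likelihood test). Ets1, at 309.5 and 237 TPM before culture, was found at 75.2, 89.8, 129, 108.8, 50.3 and 55.0 TPM in the wells, also without overlap (log2 −1.25 ± 0.31 SE, adjusted p = 0.0114). The other genes called lower were Ets2 (log2 −1.47, adjusted p = 0.0163), Elf1 (−1.45, adjusted p = 0.0109) and Elf2 (−1.36, adjusted p = 0.0427). For Ets2 the groups overlapped: in coding TPM the acutely isolated libraries were at 58.6 and 89.8, and WT wells 1 to 6 at 59.7, 67.0, 92.0, 83.2, 29.0 and 28.0.

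The EC identity pair did not pass the test. Erg was at 83.5, 102, 19.9, 15.3, 57.7 and 77.9 TPM in the WT wells (log2 −1.86 ± 0.87 SE, 95% interval −3.82 to 0.10, adjusted p = 0.108), and its low values were the wells of experiment 2. Without that experiment the Erg wells differed less from each other and Erg was called lower (log2 −1.34, adjusted p = 0.00527). In coding TPM, however, Erg was at 237 and 286.5 in the acutely isolated libraries. The wells of experiments 1 and 3 were at 230, 217, 142 and 179, so those of experiment 1 lay close to the lower EC library. Fli1 was at 31.1, 46.2, 87.1, 83.1, 10.1 and 13.02 TPM (log2 −1.08 ± 0.50 SE, 95% interval −2.21 to 0.04, adjusted p = 0.105), with wells both above and below the ECs. In coding TPM Fli1 was at 80.5 and 77.7 in the ECs. WT wells 1 to 6 were at 85.8, 98.2, 91.9, 87.7, 24.8 and 29.9, so only experiment 3 lay below the ECs. Etv6 was at 4.90, 8.19, 34.0, 28.3, 17.6 and 16.8 TPM, and 4 of 6 wells were above both acutely isolated libraries (log2 0.27, 95% interval −0.75 to 1.30, adjusted p = 0.646). The median over the 8 genes was −1.41 log2 units, and over all genes tested 0.10.

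The calls rest on few libraries and, for some genes, on the scale. The 6 wells are pairs from 3 experiments, and with the wells of an experiment summed Elk3 kept its call (log2 −1.98, adjusted p = 0.0195) while Ets1 (adjusted p = 0.129), Ets2 (0.0859), Elf1 (0.0760) and Elf2 (0.115) lost theirs (edgeR quasi-likelihood test). With a transcript length offset Ets2 was at −0.66 (adjusted p = 0.276) and Elf1 at −0.89 (0.107), and with limma on coding TPM Ets2 was at −0.42, Elf1 at −0.57 and Elf2 at −1.09, none of them called, whereas Ets1 and Elk3 were called in both. With limma on log2(TPM + 1) without that rescaling, Elk3 was at −1.60 (adjusted p = 0.0533) and Ets1 alone was called. Without acutely isolated library 1, which is the deepest, only Elk3 was called of the 8 (log2 −1.77), with Ets1 at −0.91 (adjusted p = 0.0997), Ets2 at −1.52 (0.0689), Elf1 at −1.04 (0.0973) and Elf2 at −1.32 (0.145). Without acutely isolated library 2, the calls were Ets1, Elk3 and Elf1, with Ets2 at −1.43 (adjusted p = 0.0804) and Elf2 at −1.45 (0.109), and Elf2 also lost its call without WT well 3 (−1.22, 0.0586), 5 (−1.41, 0.0550) or 6 (−1.38, 0.0646). The sorted cells differed from the cultures in read format (single reads of 75 cycles against paired reads), which cannot be told apart from culture. The mitochondrial share of counts was 10.6% and 11.2% in acutely isolated libraries and 0.667% to 1.58% in the WT wells. Pericyte markers fell from between 505.8 and 526.4 summed TPM in acutely isolated ECs to between 4.19 and 10.2 in WT culture (5 of 6 called lower), erythrocyte markers from at least 4751 to at most 1.39 (3 of 3), smooth muscle markers were at 211 to 231 before and at 496 to 3025 after culture (2 of 3 called higher and 1 lower), and the part of any of these in the ETS gene differences was not tested. The acutely isolated libraries are shared with the comparison against GFP-negative cells. In such bulk samples fewer cells of a type and less RNA per cell cannot be told apart.

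**Figure D2:**
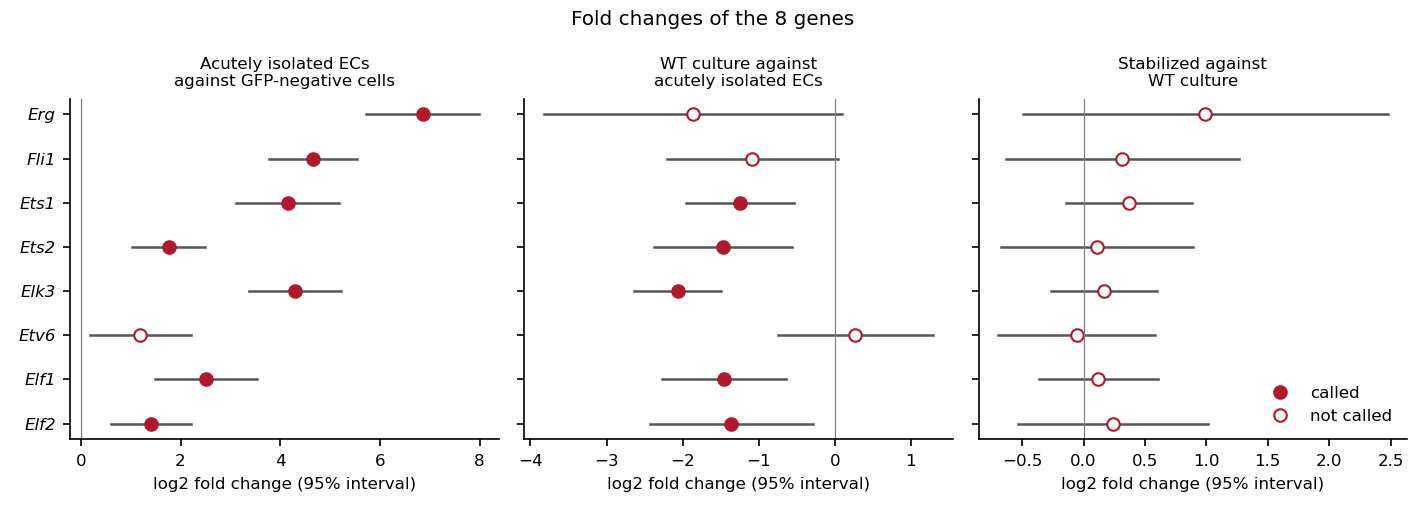
Log2 fold changes of the 8 ETS genes with 95% intervals from the edgeR quasi-likelihood test, in acutely isolated ECs against GFP-negative cells, WT culture against acutely isolated ECs, and stabilized against WT culture (filled points were called, open points were not). The panels hold 7, 5 and 0 filled points, and the intervals of Erg are the widest in both culture panels.

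The WT wells fell apart by experiment, and Erg varied most. Its coding TPM was 230 and 217 in experiment 1, 20.96 and 16.2 in experiment 2, and 142 and 179 in experiment 3, a 12.1-fold range of the means. The reads behind these values were 6009 and 9393, 827 and 935, and 7493 and 14777 estimated counts. Both wells of experiment 2 were far below all others, and the wells of 1 experiment differed by an SD of only 0.206 log2 units. Experiments 2 and 3 shared genotype and, per the methods section, isolation method, and differed in facility and read length. The cause of the low Erg values was not tested. Of 8255 expressed genes, 97.1% had a smaller range between experiments than Erg. Tested across the whole table, Erg was 3.61 ± 0.14 log2 units lower in experiment 2 than in experiment 1 (adjusted p = 4.29e-09, edgeR quasi-likelihood test) and 0.38 ± 0.13 lower in experiment 3 than in experiment 1 (adjusted p = 0.0193).

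Fli1 did not follow Erg. It had 85.8 and 98.2 coding TPM in experiment 1, 91.9 and 87.7 in experiment 2 and 24.8 and 29.9 in experiment 3, so that experiment 3, not 2, stood apart (log2 −1.72 ± 0.11 SE against experiment 1, adjusted p = 3.64e-07). Ets2 had its low wells in the same experiment, with 59.7 and 67.0, then 92.0 and 83.2, and finally 29.0 and 28.0 coding TPM. Etv6 was low in experiment 1 (13.5 and 17.4 coding TPM) and higher in experiments 2 (35.8 and 29.9) and 3 (43.3 and 38.6). Elf2 fell from 73.8 and 75.7 coding TPM in experiment 1 to 30.5 and 28.1 in experiment 2, with 47.7 and 42.4 in experiment 3.

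The other genes held their level better. Elk3 was the steadiest of the 8, at 58.5 and 59.9, 70.2 and 65.6, and 56.2 and 51.1 coding TPM, and only 8.20% of expressed genes had a smaller range between experiments. Ets1 ranged 1.59-fold, from means of 199 in experiment 1 to 125 in experiments 2 and 3. Elf1 ranged 2.34-fold, with 34.9 and 39.6, 19.5 and 17.1, and 43.8 and 41.7 coding TPM.

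In the test across all 3 experiments, 5 of the 8 genes were called (Erg, Fli1, Ets2, Etv6 and Elf2), where 36.7% of 13063 genes were called. All 8 had adjusted p-values below 0.05, as had 89.8% of genes tested, and the largest differences between experiments had a median of 1.33 log2 units over the 8 genes and 1.22 over all genes. With the 36-cycle experiments alone, 3 were called (Fli1, Ets2 and Etv6), and Elf1, at 0.95 log2 units, was called without well 1 (1.02) or well 3 (1.04). Over all expressed genes the SD between wells had a median of 0.116 log2 units and the SD between experiments 0.541. For the 8 genes the SD between experiments ran from 0.171 (Elk3) and 0.387 (Ets1) to 1.004 (Fli1) and 1.95 (Erg). On the deposited TPM scale the shift of experiment 2 changes the picture: Elk3 then had 21.2 and 28.1, 66.6 and 62.2, and 22.8 and 22.3 TPM. Experiment 2 differed from both others in facility and read length, which cannot be told apart from the culture itself.

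**Figure D3:**
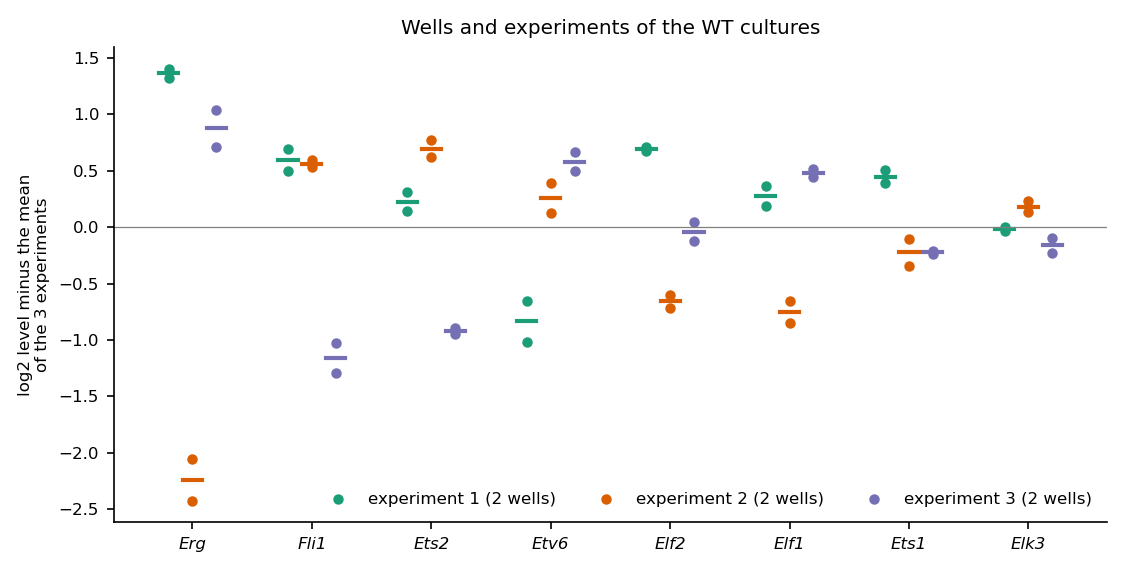
Log2 coding TPM of the 8 ETS genes minus the mean of the 3 experiments in the 6 WT wells, 1 point per well, by experiment. Erg drops in experiment 2 (20.96 and 16.2 coding TPM), and Fli1 and Ets2 drop in experiment 3. Etv6 is lowest in experiment 1, and Elk3 varies least (51.1 to 70.2 coding TPM).

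Stabilized beta-catenin gave 0 calls among the 8 genes. The edgeR quasi-likelihood test called 0% of 12971 genes at this setting, 1422 of them had an unadjusted p under 0.05, 0 of the 8 genes did, and DESeq2 called 18 genes, none of them among the 8. Erg had the largest difference, with 380, 336, 221 and 205 coding TPM in stabilized wells 1 to 4 (log2 0.99 ± 0.67 SE, 95% interval −0.50 to 2.47, adjusted p = 0.590). Stabilized wells 1 and 2 were above every WT well, while WT well 1, at 230 coding TPM, was above stabilized wells 3 and 4. The other 7 genes differed by between −0.06 (Etv6) and 0.37 (Ets1) log2 units. The intervals reached from −0.63 to 1.26 for Fli1 and from −0.27 to 0.60 for Elk3, so that a 2-fold rise of Fli1 lay inside its interval and one of Elk3 outside.

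Because WT wells differed by experiment, the comparison was also made within each isolation method. Within method A, Erg was 0.53 log2 units higher in stabilized than in WT wells, Etv6 0.83, Elk3 0.49, Ets1 0.35, Fli1 0.34 and Ets2 0.34, all with adjusted p-values below 0.05 but none past 2-fold, so 0 of 8 were called where 6.32% of genes were. The share of all genes below that adjusted p is not given here, so these differences are not read as particular to the 8 genes. Within method B at 36 cycles, Fli1 was called higher, at 53.7 and 59.4 against 24.8 and 29.9 coding TPM (log2 1.01 ± 0.11 SE, adjusted p = 0.00228), where 1.37% of genes were called. Erg was 0.40 higher and Ets2 0.54 higher there, while Etv6 (−0.45) and Elf1 (−0.24) were lower. The WT wells of this test were those of experiment 3, in which Fli1 was low. WT wells 3 and 4 (experiment 2), also by method B, were not part of it. Their Fli1 level was 91.9 and 87.7 coding TPM, above both stabilized wells of this method, so the rise of Fli1 holds against experiment 3 only. The difference between the methods was tested directly with the 36-cycle cultures, and 3 of 8 genes passed, where 49.5% of 13369 genes did. Fli1 rose more with stabilization under method B (0.69 ± 0.17 SE log2 units, adjusted p = 0.00832), and Elk3 (−0.41 ± 0.09, adjusted p = 0.00453) and Etv6 (−1.26 ± 0.17, adjusted p = 6.41e-04) less. Elf1 (−0.28) also passed without WT well 2 (−0.34) or stabilized well 3 (−0.38). Under method A the WT and stabilized wells also differed in genotype (C57BL/6J against the flex3 lines), which cannot be told apart from stabilization there. The 36-cycle WT wells of each method came from 1 experiment. The difference between methods therefore cannot be told apart from a difference between experiments.

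Transcript estimates divided the gene totals among annotated transcripts. The 8 genes have 49 annotated transcripts, of which 40 passed the filter on low counts and 14 were called between WT culture and acutely isolated ECs (3 higher and 11 lower), where 29% of 45943 transcripts were called. Ets1-201, the 5080-base main coding transcript of Ets1, was at 39.1 and 51.3 TPM in ECs and at 65.8, 83.6, 125, 104, 47.3 and 52.3 TPM in the WT wells. It was not called (log2 0.01, adjusted p = 0.985), and made up 16.6% of Ets1 TPM in ECs and 94.0% in WT culture. Most of the rest of Ets1 in ECs was assigned to Ets1-205, a coding transcript of 678 bases whose bases all lie in Ets1-201, with 154 and 101 TPM, and to Ets1-206, with 78.5 and 59.3 TPM. The retained-intron transcript Ets1-203 held 10.7% (36.05 and 22.2 TPM) and was called lower in culture (log2 −4.47, adjusted p = 0.00522, edgeR quasi-likelihood test). Ets1-205 was listed at 0 in 6 of 6 WT wells, and Ets1-206 in 5 of 6. In these estimates the fall of Ets1 lay in transcripts other than Ets1-201. All bases of Ets1-205 and Ets1-206 lie in Ets1-201, so their reads are divided by estimate. Read format differed between ECs and cultures and cannot be told apart from culture for this division.

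Elk3 showed the same kind of split. Elk3-205, a 750-base coding transcript contained in the 4212-base Elk3-201, was at 63.8 and 88.9 TPM in ECs, 73.8% of the gene, and was listed at 0 in all 10 cultures. Elk3-201 was itself called lower, from 21.1 and 19.0 TPM to 8.11, 13.2, 24.5, 21.8, 7.96 and 8.13 TPM (log2 −1.73 ± 0.34 SE, adjusted p = 0.00757). The wells of experiment 2, whose TPM scale was shifted, overlapped the ECs. Elk3-202, annotated for nonsense-mediated decay, was listed at 0 in both EC libraries and made up 45.0% of Elk3 TPM in WT culture. In GFP-negative cells, sequenced in the same read format as the ECs, Elk3-205 was at 3.68 and 6.97 TPM (68.9% of the gene), while Ets1-205 was at 4.83 TPM in library 1 and listed at 0 in library 2. Ets1-205 was also assigned 0.172 and 1.996 TPM in stabilized wells 2 and 3. Read format and culture cannot be told apart for these transcripts.

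The other genes had smaller or uncertain shifts. Fli1-201 carried 67.7% of Fli1 TPM in ECs and 98.5% in WT culture (log2 −0.43, adjusted p = 0.577), and the 878-base Fli1-202 32.3% and 1.46% (adjusted p = 0.0535). Ets2-201 was not called (log2 −0.58, adjusted p = 0.380), but the retained-intron transcript Ets2-205 was, with 21.6% of Ets2 TPM in ECs and 0.340% in WT culture. Etv6-201 was higher in culture, at 0.00681 and 0.119 TPM in ECs and between 1.39 and 12.7 TPM in the wells (log2 5.62, adjusted p = 0.00891), although the gene total of Etv6 was not called. Elf1-201 took 8.94% of Elf1 in ECs and 89.7% in WT culture (adjusted p = 0.0617), and Elf2-201 0.222% and 38.1% of Elf2 (adjusted p = 0.0530). For Erg no transcript was called: Erg-203 held 43.3% and 36.8% and Erg-207 39.1% and 34.0% in ECs and WT culture. The acutely isolated libraries themselves split Erg differently, with Erg-208 at 34.6 and 0 TPM and Erg-207 at 8.91 and 87.4 TPM. No transcript of the 8 genes was called between GFP-positive and GFP-negative cells (0% of 42777 transcripts, 14 of the 36 tested with an unadjusted p under 0.05) or with stabilization (0% of 37066, 2 of 32 tested). Elk3 shares 316 exonic bases with the opposite-strand gene Cdk17, Elf1 327 with Wbp4, Elf2 371 with 4930577N17Rik and Etv6 135 with Gm17089, and without strand these reads cannot be told apart.

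**Figure D4:**
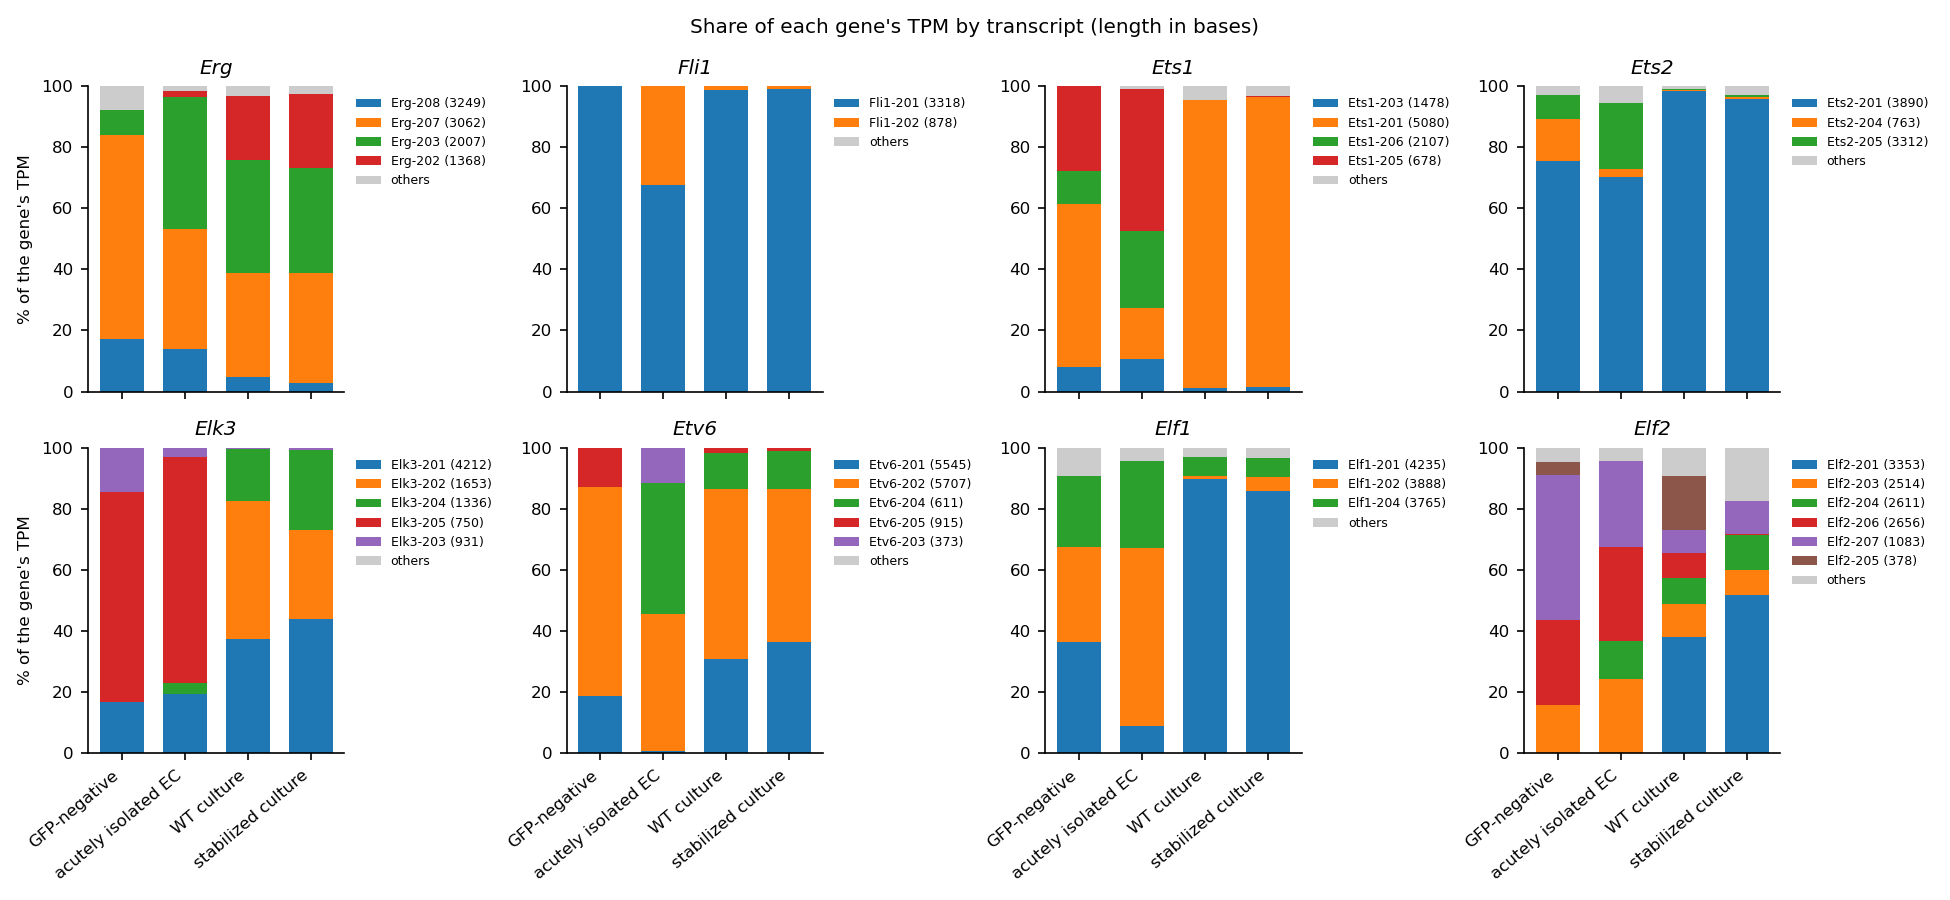
Share of each gene's TPM by transcript in the 4 RNA-seq groups, as stacked percentages of the group mean, with the length of each transcript in bases. Ets1-205 and Elk3-205 make up 46.6% and 73.8% of their genes in acutely isolated ECs and 0% in WT culture, where Ets1-201 makes up 94.0%.

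The promoters of all 8 genes were open in ECs before and after culture. A peak within 1 kb of an annotated start was found for 8 of 8 genes in 10 of 10 ATAC-seq samples, and the peak lists held from 31601 to 98603 peaks per sample, with depth unknown. Fold enrichment over the local background was lowest for Fli1, at 5.71 and 5.73 in acutely isolated ECs, from 4.20 to 5.98 in WT culture and 4.09 and 4.13 in the stabilized samples. Elf2 had strong promoter peaks throughout, at 12.5 in WT sample 2 and up to 17.7 in WT sample 5. Etv6 was at 13.3 and 13.4 in acutely isolated ECs and at 7.0 to 11.5 in the 8 cultures, without overlap. Elk3 likewise had its highest values, 11.8 and 12.0, in acutely isolated ECs, and Ets1, at 17.7 and 15.7 before culture, stayed at or below 14.8 in culture. Fold enrichments were not tested between groups.

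Single starts differed where whole promoters did not. Erg has 6 annotated starts (chromosome 16, GRCm38), and the peak at 95459245 to 95459348, which serves Erg-202, Erg-203, Erg-205 and Erg-207, was present in all 10 samples. The start of Erg-208 and Erg-201 at 95530365, whose window is shown above, had no peak in any sample, although Erg-208 was assigned 34.6 TPM in an acutely isolated library. The farthest start, that of Erg-206 at 95586593, had a peak within 1 kb in 0 of 2 acutely isolated, 6 of 6 WT and 2 of 2 stabilized samples. The enrichment of this peak was 5.51, 6.07, 11.9, 12.8, 13.99 and 12.1 in WT samples 1 to 6 and 7.84 and 8.65 in the stabilized samples. Its highest summit lay in an intron, 938 bases downstream of the start. The 300-base RefSeq promoter window of this start held a peak in 0 of 10 samples, and Erg-206 was listed at 0 TPM in every culture. The start of Elf2-206 was open in 1 of 2 acutely isolated samples, at 3.26, and in all 8 cultures, at 9.95 to 15.8. The upstream start of Ets1-203 had a peak in both acutely isolated and both stabilized samples but in 4 of 6 WT samples, and was missing from samples 1 and 2. The second Elf1 start, used by Elf1-202 and Elf1-204, had a peak in 1 WT and 1 stabilized sample only.

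Within 10 kb of the 8 genes, merging the peaks of all samples gave 214 regions. Peaks in all 10 samples made up 29 of them (13.6%), against 13.4% of 125868 regions genome-wide. Those in both acutely isolated samples and no culture made up 9 (4.21%, against 2.83%), and those in all 6 WT samples but neither acutely isolated sample 23 (10.7%, against 8.11%). Erg had 8 of the last kind among 34 regions and Etv6 7 among 46, while Elk3 had 3 of the 9 acutely isolated ones among its 26. Elf2 had none of either kind among 12. The acutely isolated region beyond Elk3 had enrichments of 9.92 and 10.4, and the one in Ets1 7.59 and 5.44. The culture region in Etv6 ranged from 9.04 to 19.2 over the 8 cultures and the one in Erg from 5.81 to 18.4. The lists of acutely isolated samples were shorter, with 37211 and 31601 peaks, than those of most cultures, so an absent peak there does not show closed chromatin. Erg and Ets2 are neighbors on chromosome 16 (95359169 to 95586593 and 95702075 to 95721051), with 115481 bases and 0 protein-coding genes between them, as are Fli1 and Ets1 on chromosome 9 (32422204 to 32542861 and 32636221 to 32757820), 93359 bases apart.

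**Figure D5:**
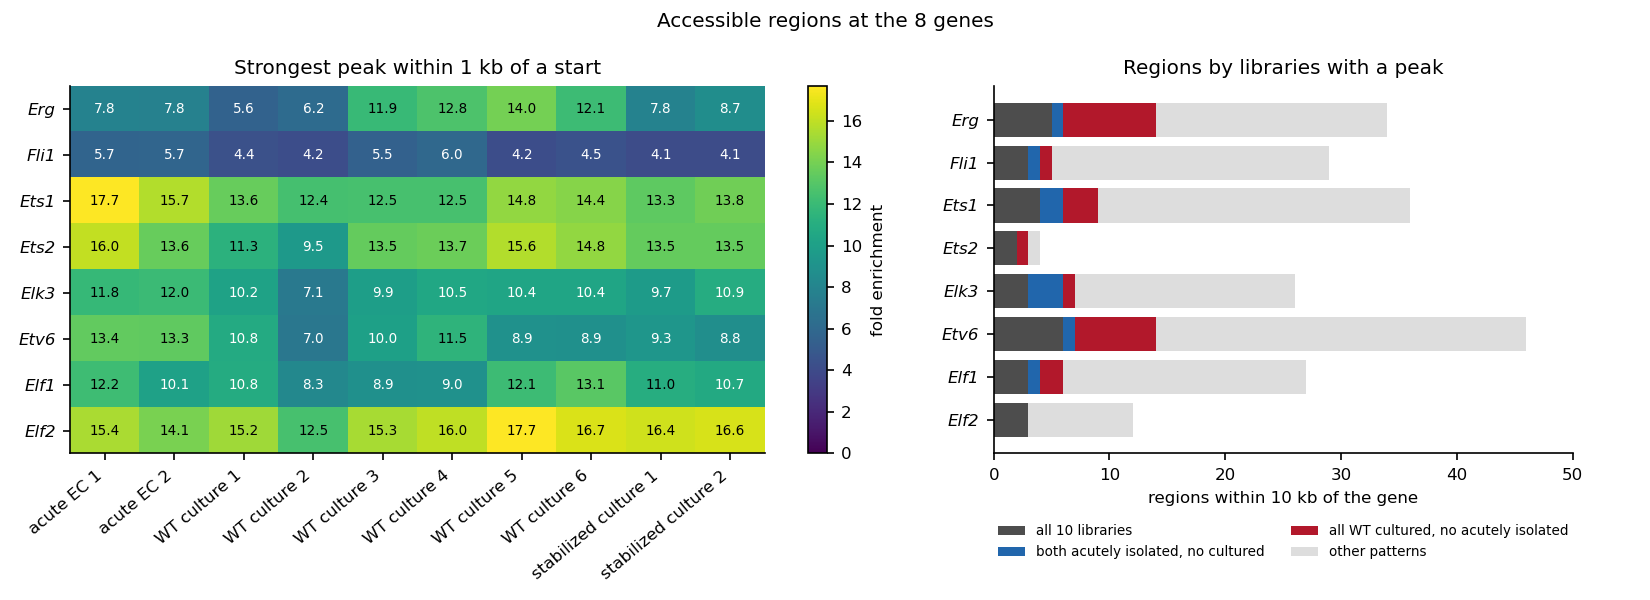
Left, fold enrichment of the strongest peak within 1 kb of a start of each ETS gene in the 10 ATAC-seq samples. Right, number of merged regions within 10 kb of each gene by the samples that held a peak, where Erg and Etv6 have 8 and 7 regions found in all WT cultures and no acutely isolated sample and Elk3 has 3 of the opposite kind.

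The letters that ETS factors bind were searched on both strands. CCGGAAG, which contains the shorter GGAA, was present in the 200 bases centered on the summit in 6.80% and 7.86% of peaks of acutely isolated samples, in 5.74%, 7.35%, 4.04%, 3.96%, 4.37% and 4.13% of those of WT samples 1 to 6, and in 4.45% and 4.45% of those of stabilized samples. The share was lower in the longer peak lists, and WT sample 2, with 33032 peaks, lay within the range of the acutely isolated ones. Of the promoters of these genes, 10 windows of 6 genes were in the RefSeq table. All 10 hold GGAA, as do 96.0% of 32851 promoters, and 0 of 10 hold CCGGAAG, against 8.86%. Among the 61 regions near the 8 genes that were in all samples or on one side of the culture step, 2 hold CCGGAAG, 1 each at Erg and Elk3, and all hold between 1 and 11 copies of GGAA.

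The rest of the family was mostly silent or low. Of 18 other ETS genes that were measured, 8 stayed under 1 TPM in all groups and 7 reached 5 TPM in every library of a group. Of the 9 tested between WT culture and ECs, 3 were called lower, where 10.2% of all genes were: Elk4, another ternary complex factor (log2 −2.77), Etv3 (−1.37) and Gabpa (−1.27), an ETS factor of housekeeping genes. Against GFP-negative cells, 1 of 12 was higher in ECs (Elk4, 2.33) and 2 were lower, Etv1 (−3.59) and Etv4 (−7.02), where 8.28% and 7.55% of all genes were. The 8 genes together held 56.0% of the family's TPM in acutely isolated ECs and 82.5% in WT culture. Elk4, at 660 and 280 TPM in ECs, accounted for much of the remainder.

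Partners and targets were counted alongside. Of 15 cofactors and partners of ETS proteins, 3 were called higher and 7 lower in WT culture than in ECs (13.5% and 10.2% of all genes), among them the LIM-domain bridging factor Lmo2 (log2 −3.89) and the histone acetyltransferases Ep300 (−3.45) and Crebbp (−2.64). The median of this list was −1.40 log2 units. Of 20 endothelial genes known as ETS targets, including Ets1 itself, 19 were called higher in the GFP-positive sort (8.28% of all genes). Cldn5, the tight junction protein, was higher by 9.75 and Robo4 by 8.87. The list holds endothelial genes and the sort selects ECs, so this count follows from the choice of genes and does not bear on ETS factors. In culture 2 of the 20 were higher (13.5% of all genes), such as the vessel-destabilizing ligand Angpt2 (5.28), and 5 were lower (10.2% of all genes), among them the receptors Flt1 (−4.54), Kdr (−3.50) and Tek (−3.38), with a list median of 0.09 against 0.10 over all genes. With stabilization 0 of the 15 partners and 0 of the 20 targets were called (1 and 3 with an unadjusted p under 0.05, edgeR quasi-likelihood test). Between the WT experiments 16 of the 20 targets and 9 of the 15 partners were called, where 36.7% of all genes were.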

How the data were processed

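RNA-seq and ATAC-seq of mouse brain ECs were analysed from the deposited files of 24 of the 30 samples listed. The separately listed cerebrum samples were not analysed here, although the study's adult brain ECs join cerebrum and cerebellum data. Per the study's methods, the authors quantified transcripts with Salmon 0.14.0 (GENCODE annotation of GRCm38) and deposited estimated counts and TPM per transcript for each library. For ATAC-seq the authors aligned with HISAT2 2.1.0, removed duplicates with Picard and called peaks per sample with MACS2 2.1.2; the deposited lists give fold enrichment (a ratio) and −log10 q, and the depth is unknown. The deposited peak score, a whole-number form of the −log10 q, was not used. Peaks were kept above a fold of 2 and a −log10 q of 2.

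Estimated counts were summed per gene and rounded, so fits used 21847 protein-coding genes before the default filter on low counts. Library totals ran from 24284843 to 94686456 estimated counts, and the shallowest libraries give the least precise values. The main test was edgeR 4.0.16 (TMM scaling, quasi-likelihood F test, Benjamini-Hochberg adjustment over all genes tested) in R 4.3.3, with only the groups compared in each fit; DESeq2 1.42.0 and limma 3.58.1 on log2(TPM + 1) were alternatives, the last also on coding TPM, which was added after seeing the data. Scripts were tested on simulated data with 200 changed genes. Calls required an adjusted p below 0.05, a fold above 2 and 5 TPM in every library of the higher group, and intervals cover 95%. For the test of stabilization by method a call needed only the adjusted p. Replicate numbers were not used to pair samples. The 8 genes, their partners and targets were named by fixed lists; the members and lists were chosen with earlier results of these data known. Promoter sequences came from RefSeq (GRCm38.p6) and matched 6 of the 8 genes, and region sequences from the GRCm38 genome. Merged regions shared at least 1 base.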

Additional observations from a re-analysis of the deposited data

Results flagged for a closer look

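Of the 40 groups of 4 to 10 samples examined for a sample far from the others, 1 stood out, where chance would give about 1 in 20. It was the promoter peak of Elk3 in WT culture: WT sample 2 had a fold enrichment of 7.14, and the other 5 WT samples lay between 9.9 and 10.5.

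For 3 genes the effect of stabilized beta-catenin differed between isolation methods in the edgeR quasi-likelihood test of the difference (method B minus method A, 36-cycle cultures, n = 2 wells per arm). The difference was 0.69 log2 units for Fli1 (adjusted p = 0.00832), −0.41 for Elk3 (adjusted p = 0.00453) and −1.26 for Etv6 (adjusted p = 6.41e-04). Etv6 was the one of them whose effect had opposite signs, 0.83 under method A and −0.45 under method B. Of all genes tested, 49.5% passed the same test. The WT wells of each method came from 1 experiment, and under method A their genotype differed as well. Method, experiment and genotype cannot be told apart. The methods section and a figure legend of the study differ on the isolation method of WT wells 5 and 6, and the methods section was followed.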

How the results depend on the processing

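Over 680 values of the 8 genes under alternative settings, 588 kept their direction and their side of the threshold, 52 lost and 18 gained a call, and 22 changed sign. For WT culture against ECs (5 called), the count was 2 with library size scaling, 3 with a transcript length offset, 1 and 2 with limma on log2(TPM + 1) and log2(TPM + 0.1), 2 with limma on coding TPM, and 1 with wells of an experiment summed. Leaving out 1 library gave 1 to 5. For ECs against GFP-negative cells (7 called), limma gave 4 on each scale and leaving out 1 library 5 to 7. With stabilization (0 called), method B at 36 cycles alone gave 1 and leaving out 1 library 0. Between WT experiments the count was 5, with 3 from the 36-cycle experiments and 5 to 6 leaving out 1 library, and for the difference between methods it was 3, with 5 under library size scaling and 3 to 4. The causes were not tested.

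Values that changed sign were Etv6 in culture (log2 −0.58 with the replicate block, −0.023 without acutely isolated library 2 in a range of −0.023 to 0.60 leaving out 1 library, and −0.60 with method A alone). With stabilization they were Etv6 (0.14 on coding TPM, 0.29 with the block, −0.17 to 0.085 leaving out 1 library, 0.18 with a method term and 0.83 within method A), Fli1 (−0.16, block), Ets2 (−0.27 with the block, −0.070 to 0.26 leaving out 1 library), Elf1 (−0.094 with a method term, −0.24 within method B) and Elf2 (−0.082 and, within method A, −0.18). In the difference between methods they were Ets1 (0.0014 with library size scaling) and Erg (−0.30 to 0.058 leaving out 1 library).

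For samples with the same replicate number, correlations of deviations from the group mean were −0.03 and 0.04 for culture and 0.06 and 0.06 for the sorted cells. For stabilization they were 0.47, 0.46, −0.01 and 0.04, and wells 1 and 2 with unlike numbers gave 0.53 and 0.38. With 2 libraries per group the deviations mirror each other, so the sorted-cell values cannot show whether sorts were paired. With the replicate number as a block, 4, 7 and 0 of the 8 genes were called in these comparisons.

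Counts over all genes moved too. Without the TPM minimum 5989 genes were called in culture (3276 before), 4474 in ECs against GFP-negative cells (2394) and 7637 between WT experiments (4795). Culture gave 2104 with wells summed. The sorted cells gave 1550 with a length offset and 1347 with limma on log2(TPM + 1). Stabilization gave 18 with DESeq2, 182 with the block, 76 with a method term, 813 within method A and 176 within method B, and the 36-cycle experiments gave 1895.

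The share of peaks with the shorter GGAA was 92.1% in WT culture and 90.3% in acutely isolated samples, and with stricter peaks CCGGAAG was in 8.79% of the latter (7.33% before).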

Other observations

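Over the 14 RNA-seq libraries and 10699 expressed genes, the gene whose log2 TPM ran most like that of 7 of the ETS genes was Shroom4 for Erg (Pearson r = 0.985), Nos3, the endothelial nitric oxide synthase, for Fli1 (0.995), Oas1a for Ets1 (0.982), Ubl3 for Ets2 (0.971), Gpatch4 for Etv6 (0.975), Arhgef5 for Elf1 (0.972) and Phactr2 for Elf2 (0.950). These are descriptions over libraries that share the TPM scale and the split into sorted and cultured cells. On coding TPM the value for Ubl3 and Ets2 was 0.679, and for Nos3 and Fli1 0.994. Among the 8 genes, Ets1 and Elk3 had r = 0.935 (0.939 on coding TPM) and Etv6 and Elf2 0.042 (−0.338).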
